A study of Mus musculus with 16 samples.

Results

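The 8 genes of mouse chromosome 16 examined here surround or flank the Il1rap locus, which encodes the interleukin-1 receptor accessory protein and its brain isoform AcPb. The members were Gm20319, Atp13a4, Cep19, Tctex1d2 and Tfrc, which lie on or within 10 Mb of Il1rap, and Clec16a, Ubald1 and Tiam1, which lie farther away. They were 8 of the 24421 genes in the deposited tables, and their names were matched exactly. They were selected on their normalized read counts, which separated AcPb-/- from wild-type libraries both in controls and after sleep disruption (SD). Values between the genotypes are therefore given as a description, with no test, whereas the effect of SD within a genotype was not used in the choice and was tested. The choice favours genes with little spread within groups, on which the SD tests also rest.

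RNA was sequenced from somatosensory cortex of wild-type C57BL/6 mice (C57/BL6J in the study's methods) and of homozygous mice lacking AcPb, described as male and 2-3 months old. Both lines came from a commercial supplier and were bred at the study's university for 5-7 generations. Undisturbed controls (CTL-WT and CTL-AcPbKO) were compared with mice kept awake by gentle handling from zeitgeber time (ZT) 20 to 4 (SD-WT and SD-AcPbKO). All were collected at ZT4, with lights on at ZT0. Each of the 4 groups had 3 libraries in the tables, and 4 of the 16 labelled samples had no column there and were not analysed here. The strain of the targeted embryonic stem cells and the number of backcrosses were not given in the sources used here, and the DNA flanking Il1rap was not genotyped in these data. Loss of AcPb, other DNA carried with the targeted locus and the separate breeding of the lines cannot be told apart in this design.

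AcPb is made in neurons by alternative use of the last exons of Il1rap and modifies signalling through the interleukin-1 receptor, which takes part in sleep regulation. A line made by gene targeting can keep DNA of the strain that was targeted next to the altered locus, and genes in that DNA can then differ in expression together with the genotype. The members have unrelated roles. Tfrc, the transferrin receptor, brings iron into cells. Atp13a4 belongs to the P5-type transport ATPases, whose relative Atp13a2 exports polyamines from lysosomes. Cep19 works at the base of the primary cilium, where it recruits the small GTPase Rabl2, and Tctex1d2 is a light chain of the dynein that returns cargo along the cilium. Clec16a controls mitophagy and endosomal traffic, and Tiam1 is an exchange factor that activates the GTPase Rac. Ubald1 encodes a small protein of little known function, and Gm20319 is a non-coding transcript antisense to Il1rap.

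By GENCODE M21 (GRCm38, the build of the authors' mm10), Il1rap spans chr16:26581704-26730117 on the plus strand. Gm20319 (ENSMUSG00000092545.7; chr16:26714446-26755502) lies on the minus strand, and 552 of its 1125 exon bases, 49.1%, are also Il1rap exon sequence. The kit kept strand information, but the strand setting of the counting was not given in the sources used here, so reads of the pair are uncertain. Downstream of Il1rap are Atp13a4 (chr16:29395853-29544864, minus strand, 2.67 Mb away), Cep19 (chr16:32099800-32108069, plus, 5.37 Mb), Tctex1d2 (chr16:32419702-32429099, plus, 5.69 Mb) and Tfrc (chr16:32608920-32632794, plus, 5.88 Mb). Upstream are Clec16a (chr16:10545339-10744878, plus, 15.8 Mb) and Ubald1 (chr16:4874778-4880315, minus, 21.7 Mb). Tiam1 (chr16:89787111-90143769, minus) lies 63.1 Mb downstream. No 100-base stretch of a member's exons recurred on the same strand of another annotated gene.

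**Figure D1:**
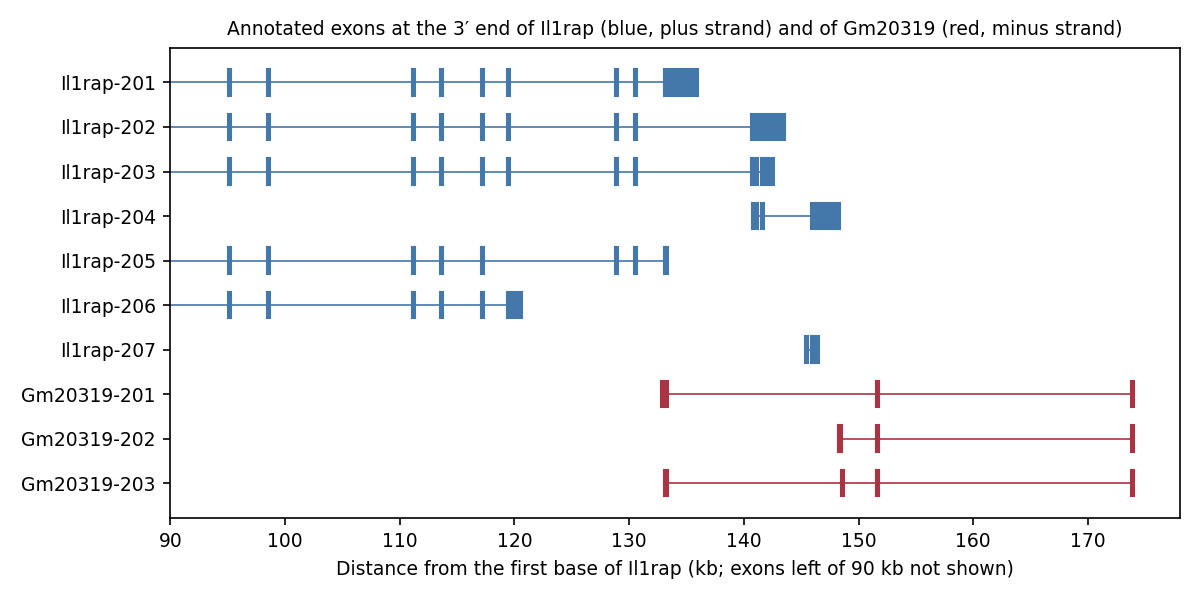
Annotated exons (boxes) and introns (lines) of the Il1rap transcripts (blue, plus strand) and Gm20319 transcripts (red, minus strand), in kb from the start of Il1rap. Each of the 3 Gm20319 transcripts begins beyond the end of Il1rap and reaches over its last annotated exons.

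The 250 bases before the annotated start of 4 members are shown. Gm20319 had the largest genotype fold change of the members, though from few reads. Tfrc fell with SD, and Cep19 and Clec16a rose with SD. The sequences are from RefSeq (GRCm38.p6), which held all 8 members, and run 5′ to 3′ on the strand of the gene. Capitals mark matches on either strand to the GC box GGGCGG or to TGACG, the core of the cyclic AMP response element.
Gm20319 (chr16:26755503-26755752, minus): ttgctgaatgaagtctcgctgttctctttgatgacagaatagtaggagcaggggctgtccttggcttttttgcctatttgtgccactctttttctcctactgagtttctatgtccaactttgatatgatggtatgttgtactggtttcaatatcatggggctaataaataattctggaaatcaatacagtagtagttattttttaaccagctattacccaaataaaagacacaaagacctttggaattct
Tfrc (chr16:32608646-32608895, plus, upstream of 1 of 2 listed starts): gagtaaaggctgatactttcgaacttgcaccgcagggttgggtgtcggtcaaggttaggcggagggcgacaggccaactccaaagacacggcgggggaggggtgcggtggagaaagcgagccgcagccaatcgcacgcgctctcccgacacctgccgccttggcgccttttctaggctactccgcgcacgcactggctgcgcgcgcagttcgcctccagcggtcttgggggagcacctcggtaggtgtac
Cep19 (chr16:32099539-32099788, plus): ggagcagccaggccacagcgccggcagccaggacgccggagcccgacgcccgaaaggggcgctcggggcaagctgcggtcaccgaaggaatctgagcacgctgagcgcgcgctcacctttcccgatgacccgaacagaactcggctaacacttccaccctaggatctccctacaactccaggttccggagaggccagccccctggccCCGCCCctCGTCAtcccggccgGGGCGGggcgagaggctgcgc
Clec16a (chr16:10545089-10545338, plus): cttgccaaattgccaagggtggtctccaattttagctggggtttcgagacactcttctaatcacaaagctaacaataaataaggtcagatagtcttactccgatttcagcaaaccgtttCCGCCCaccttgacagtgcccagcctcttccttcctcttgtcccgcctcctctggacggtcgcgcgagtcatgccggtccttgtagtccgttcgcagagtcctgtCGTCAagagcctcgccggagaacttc
The Gm20319 window had 36.8% G and C, against 52.8% in Clec16a, 64.8% in Tfrc and 70.4% in Cep19. Cep19 and Clec16a each held TGACG, which occurred in 17.8% of 32851 promoter windows of that length, and GGGCGG, which occurred in 32.7%. The full element TGACGTCA, the E-box CACGTG and the TATAAA box were in none of the 8 windows, and were in 1.55%, 6.02% and 12.4% of all windows. The AP-1 sequence TGANTCA, in 6.75% of all windows, was found only in that of Tiam1.

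Total reads on genes ranged from 26504840 to 41615582 in the 6 control libraries and from 58770286 to 71857505 in the 6 SD libraries, so SD libraries were the deeper. In the controls, 4 libraries labelled male, CTL-WT 2 and 3 and CTL-AcPbKO 4 and 5, each held at least 1000 reads of Xist, the RNA of the inactive X chromosome, and none of the SD libraries did. These libraries held 25352 to 39358 Xist reads and 0 to 2 reads of 4 Y-linked genes. The other libraries held 5 to 13 Xist reads and 5105 to 10593 Y-linked reads. The reads thus go against the male label in those 4 controls, and sex is partly confounded with SD in both genotypes. The summed level of 5 cortical neuron markers was between 414589 and 520009 normalized reads in every library. The 5 choroid plexus and ependyma markers summed to 388 to 757 normalized reads in 11 libraries and to 18018 in SD-AcPbKO 4. Values of Tfrc, Cep19 and Clec16a are therefore also given without that library. The 4 oligodendrocyte markers used summed to 33562 and 45572 in CTL-AcPbKO 4 and 5 and to 78782 in CTL-AcPbKO 3, against 66315 to 84651 in CTL-WT. The 4 hemoglobin genes were listed at 0 in all 12 libraries. Fewer cells of a type and less RNA per cell cannot be told apart in this bulk tissue.

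Il1rap itself was present in every library. Its normalized read count, scaled over all 12 libraries, was 1497 ± 21.9 in CTL-WT, 1583 ± 66.1 in CTL-AcPbKO, 1825 ± 95.6 in SD-WT and 1971 ± 78.9 in SD-AcPbKO (mean ± standard deviation, n = 3 each). The genotype difference was 0.08 ± 0.06 (log2 fold change ± SE) in controls, with an adjusted p of 0.718 in limma, and 0.11 ± 0.07 after SD, with an adjusted p of 0.874. A count over the whole gene does not check the removal of an isoform, since the other isoforms share exons with AcPb. Il1rap rose with SD by 0.28 ± 0.06 in wild-type mice (limma adjusted p = 0.010) and by 0.32 ± 0.06 in AcPb-/- mice (adjusted p = 0.00694).

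Per kb of exon, the levels of the members in CTL-WT spanned a wide range. Cep19 had a mean of 1494 normalized reads per kb and Tfrc 1377, followed by Ubald1 at 813, Clec16a at 797 and Tiam1 at 565. Tctex1d2 at 166 and Atp13a4 at 106 were close to Il1rap at 132, and Gm20319 was at 1.5.

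Between genotypes, Gm20319, Atp13a4, Tctex1d2, Clec16a and Tiam1 were higher in AcPb-/- cortex, and Tfrc, Cep19 and Ubald1 were lower, both in controls and after SD. All 8 separated the genotypes in both conditions, which is how they were chosen. Over all genes tested, 14.4% had libraries that did not overlap in controls, 11.4% did not after SD, and 2.05% did neither time with the same direction (409 of 19916). Nothing is read from the members' count. Values below are normalized read counts scaled over all 12 libraries, and fold changes are differences of log2(normalized count + 1) from limma on the authors' scaling of each pair of groups, with 3 libraries a group.

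Gm20319 was nearly silent in wild-type cortex and low but present in AcPb-/- cortex. In controls its normalized read counts were 2.5, 1.4 and 1.1 in wild-type and 11.7, 10.6 and 14.1 in AcPb-/- libraries. After SD they were 0.7, 0.0 and 1.5 against 11.6, 14.4 and 11.4. The lowest AcPb-/- library thus stood above the highest wild-type library in both conditions. These values rest on few reads, 25 in the AcPb-/- controls against 4 in the wild-type controls, and 53 against 3 after SD. The ratio per normalized library was 7.34 in controls (exact 95% interval 2.53 to 29.0) and 16.9 after SD (5.47 to 84.4), intervals that cover counting error only. Gm20319 was chosen on these same counts, so the intervals do not allow for that choice and are not a test.

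Atp13a4, the nearest protein-coding member, was higher in AcPb-/- cortex. In controls it was at 707.6, 615.5 and 666.1 in wild-type and 947.1, 1001.1 and 1086.7 in AcPb-/- libraries. Among SD libraries the values were 627.4, 586.7 and 618.4 against 869.6, 944.3 and 917.3. No AcPb-/- library came near a wild-type one, and the difference was alike in size in the 2 conditions, 0.61 ± 0.08 in controls and 0.57 ± 0.07 after SD. Its adjacent paralog Atp13a5 differed by 0.24 in controls and by 0.01 after SD.

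Cep19, Tctex1d2 and Tfrc lie 5.37 to 5.88 Mb from Il1rap, with other genes between them, and did not share a direction. Cep19 was at 2484.9, 2591.7 and 2769.3 in CTL-WT and at 2157.8, 2155.9 and 2010.6 in CTL-AcPbKO. In SD libraries Cep19 was at 3157.4, 3544.5 and 3188.0 against 2931.7, 2775.9 and 2743.4. The AcPb-/- libraries were the lower both times, by -0.31 ± 0.06 and -0.23 ± 0.07 on the log2 scale. Tctex1d2 was at 378.5, 354.9 and 451.5 in CTL-WT and at 469.6, 508.5 and 468.3 in CTL-AcPbKO, so that CTL-WT 3 came close to the AcPb-/- libraries. After SD it was at 332.9, 327.0 and 376.2 against 513.4, 549.0 and 488.8, a wider gap. The difference was 0.29 ± 0.11 in controls and 0.58 ± 0.10 after SD.

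Tfrc had its 4 groups in an order without overlap, from CTL-WT down through CTL-AcPbKO and SD-WT to SD-AcPbKO. It was at 8177.4, 8313.0 and 9065.7 in CTL-WT and at 6941.6, 7064.5 and 7124.1 in CTL-AcPbKO. SD libraries held 4838.8, 4537.0 and 5952.5 in wild-type and 3627.8, 3679.6 and 4009.0 in AcPb-/- mice. AcPb-/- cortex had less Tfrc mRNA by -0.27 ± 0.05 in controls and -0.43 ± 0.10 after SD. The difference after SD was -0.48 without SD-AcPbKO 4, the library with choroid plexus markers.

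The members more than 10 Mb away were Clec16a, Tiam1 and Ubald1. Clec16a was at 7110.3, 6358.0 and 6530.0 in CTL-WT against 9566.4, 7629.5 and 8101.8 in CTL-AcPbKO. With SD its values were 8573.7, 9036.7 and 7984.5 against 12012.4, 10928.2 and 10836.7. Its excess in AcPb-/- cortex was 0.33 ± 0.09 in controls, where CTL-AcPbKO 3 stood above the rest of its group, and 0.40 ± 0.07 after SD.

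Tiam1 was at 5720.4, 5715.7 and 5605.7 in CTL-WT against 6495.5, 6960.3 and 6735.0 in CTL-AcPbKO. In SD libraries Tiam1 was at 5257.3, 4892.2 and 4994.9 against 6745.3, 5423.5 and 5860.7, and the lowest AcPb-/- library was close to the highest wild-type one. The difference was 0.24 ± 0.05 in controls and 0.25 ± 0.08 after SD. Ubald1 was at 4436.8, 4742.4 and 4335.1 against 4125.1, 3798.0 and 3947.6 in controls. The SD values were 4834.1, 4902.2 and 4375.1 against 3930.6, 3705.1 and 3569.2. Its AcPb-/- libraries were lower by -0.19 ± 0.06 in controls and -0.33 ± 0.07 after SD.

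**Figure D2:**
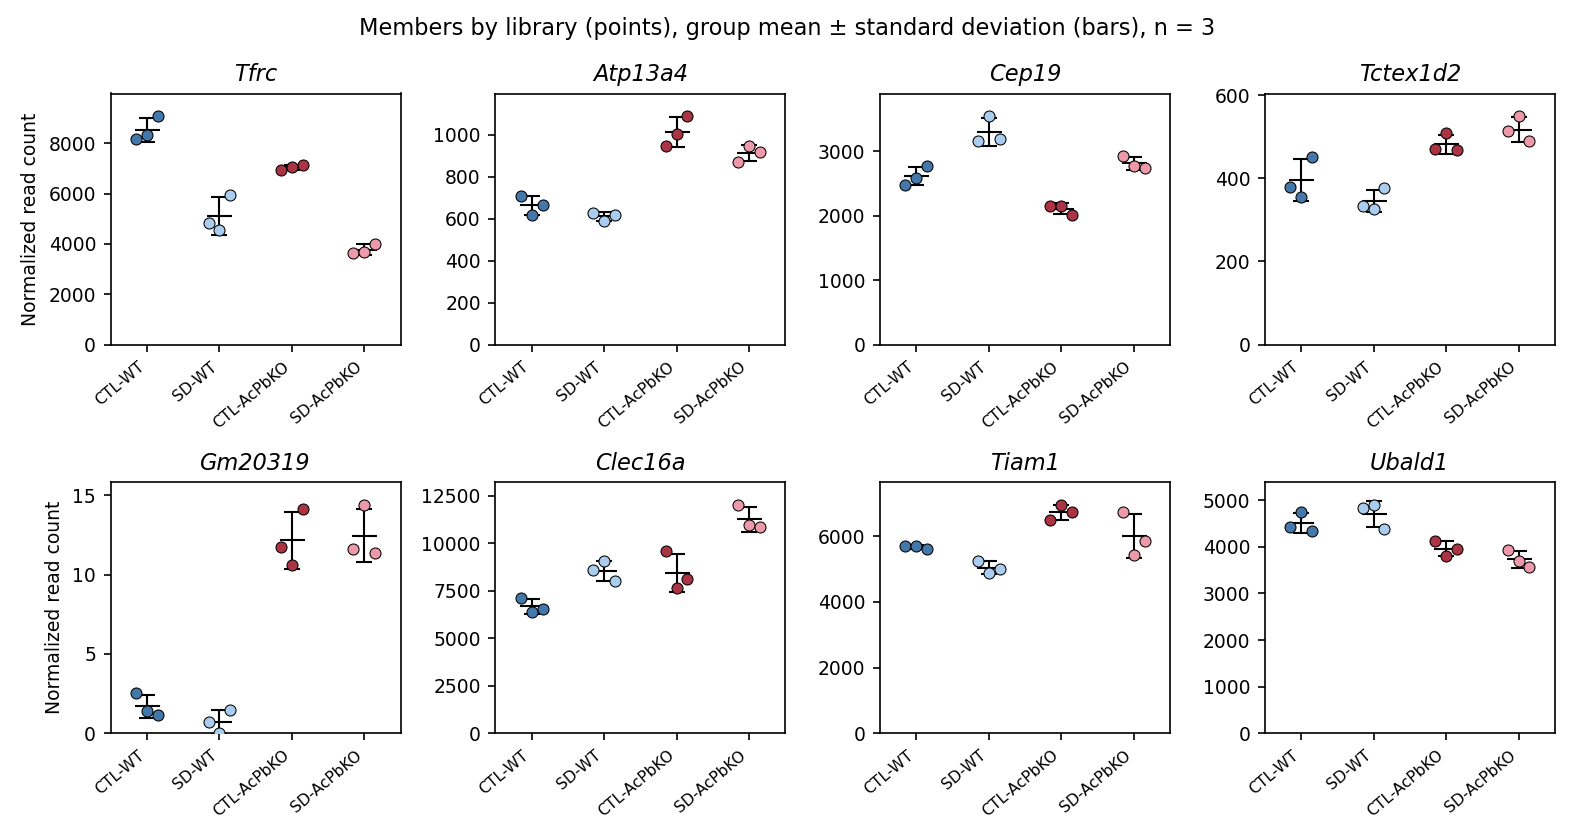
Normalized read count (y axis, from 0) of each member in the 12 libraries (points) of the 4 groups (x axis), with the group mean ± standard deviation (n = 3). Gm20319 was at 2.5 or less in every wild-type library and at 10.6 or more in every AcPb-/- library, and Tfrc fell with SD in both genotypes.

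The 4 control libraries with Xist reads were divided between the genotypes, 2 in each. A term for Xist therefore leaves the genotype difference in controls nearly as it was by construction, and the part of Xist libraries in it was not tested. Markers of oligodendrocytes moved with genotype among controls in CTL-AcPbKO 4 and 5 as given above, and their part in the members' values was not tested.

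The surroundings of Il1rap were then compared with the rest of the genome. In limma, 0 genes within 10 Mb passed an adjusted p of 0.05 between genotypes in controls, where 0.0197% of all genes did (4 genes, Erich5, Gabra2, Nnt and Tmem181b-ps, none placed on chromosome 16). After SD 0 genes within 10 Mb passed, against 0.0145% of all genes (2610035D17Rik, Bub1b and Dsp, all on other chromosomes). At an unadjusted p under 0.05, 28 of 228 neighbours other than the members and Il1rap (12.3%) passed in controls, against 8.50% of all genes without them. After SD 14 of 238 (5.88%) passed, against 6.10%. With the members and Il1rap in, the local shares were 14.1% and 7.79%. The choice of the members bears on both readings. The members are left out of the other tools' counts, because the genotype contrasts chose them. Among the other neighbours within 10 Mb, DESeq2 and edgeR called 0 in controls and 0 after SD.

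Leaving out the members and Il1rap, 6 of 226 neighbours within 10 Mb (2.65%) had libraries that separated the genotypes the same way in both conditions. Over all genes without them the share was 2.01%. Because the members were chosen for this separation, leaving them out lowers the local share by construction. With the members and Il1rap in, it was 11 of 232 (4.74%), a share raised by that choice, so neither tests the neighbourhood. Within 5 Mb there were 4 of 70 (5.71%) without them and 6 of 73 (8.22%) with them. On the whole of chromosome 16 there were 12 of 594 (2.02%) without them. The neighbours were named after their values were seen. With a mean of at least 10 normalized reads they were Mrpl40, Ccdc50, Hrasls and Tnk2os. Tnk2os, a transcript antisense to the kinase gene Tnk2, lies 5.94 Mb from Il1rap, close to Tfrc. It was at 44.3, 35.2 and 39.1 in CTL-WT against 100.5, 68.9 and 89.1 in CTL-AcPbKO, and at 40.4, 34.9 and 33.3 in SD-WT against 68.1, 58.2 and 61.0 in SD-AcPbKO.

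The remaining neighbours, Tmem207 and Ostn, were close to Il1rap and had few reads. Tmem207 starts 0.055 Mb upstream of Il1rap on the minus strand, and had 0 reads in each of the 6 wild-type libraries. It had 4, 4 and 5 reads in CTL-AcPbKO and 6, 6 and 8 in SD-AcPbKO. With the wild-type group set at 3 reads in place of 0, the AcPb-/- ratio was 5.09 in controls and 6.37 after SD. These ratios allow for no counting error in the AcPb-/- reads and are not lower bounds. Tmem207 was named for this same separation, so they test nothing. Ostn, the gene of the secreted peptide osteocrin, lies 0.577 Mb downstream and went the other way, with 3, 5 and 6 reads in CTL-WT against 0, 1 and 0 in CTL-AcPbKO, and 7, 8 and 13 in SD-WT against 3, 2 and 3 in SD-AcPbKO. The genes on either side of Il1rap thus included both higher and lower ones.

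**Figure D3:**
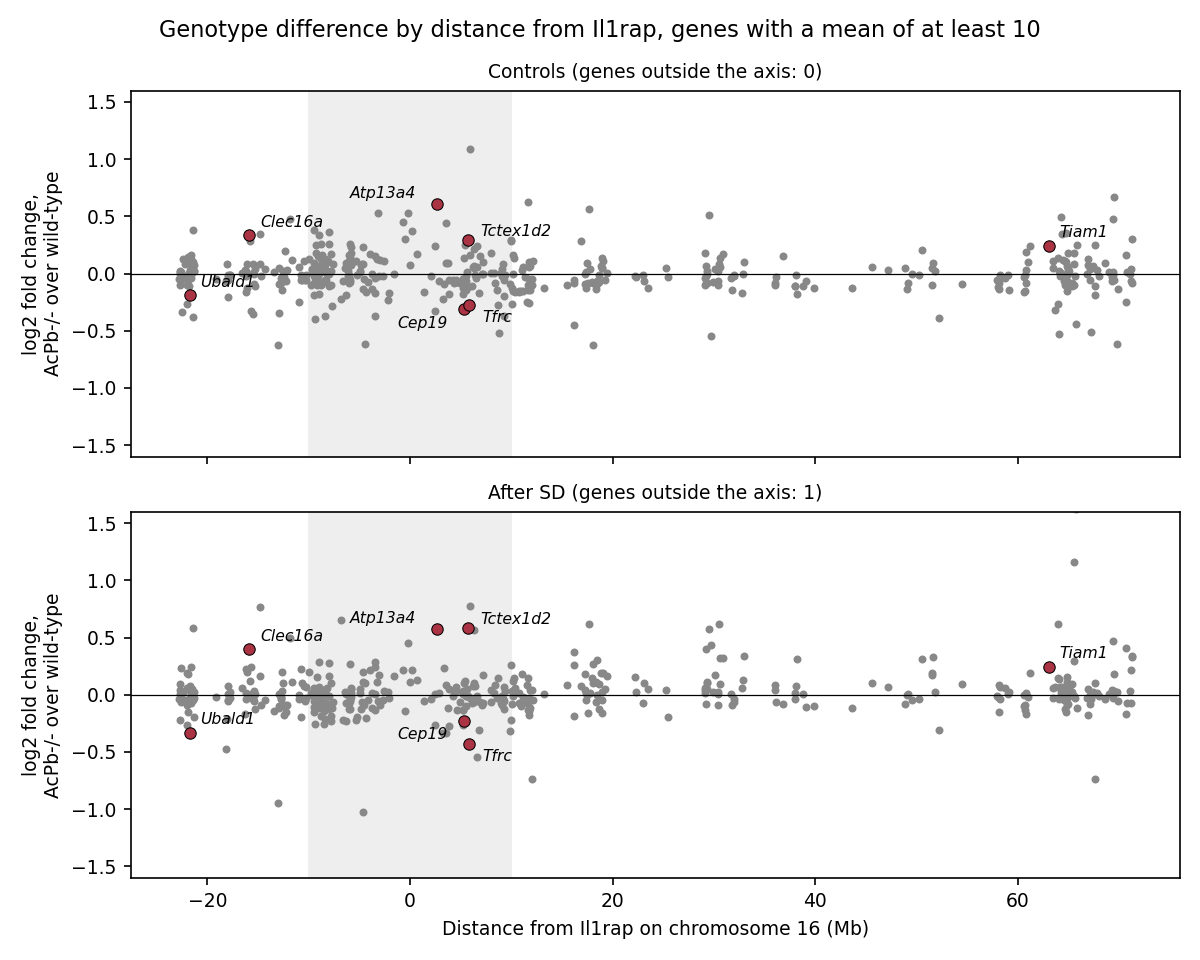
Genotype difference (y axis, log2 fold change of AcPb-/- over wild-type) by distance from Il1rap (x axis, Mb) for 479 chromosome 16 genes with a mean of at least 10 normalized reads, in controls and after SD. Red points are the 7 members above that mean (Gm20319 is below it), grey points the other genes, and the shaded band spans 10 Mb on each side, where members lie above and below 0.

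Sleep disruption was then tested within each genotype. With SD, Tfrc fell and Cep19 and Clec16a rose in both genotypes, and Tiam1 fell in wild-type mice. In wild-type mice 4 of the 8 members passed an adjusted p of 0.05 in limma, where 25.4% of all genes did (13.2% higher and 12.2% lower). In AcPb-/- mice 3 of 8 passed, against 27.4% of all genes (14.1% higher and 13.3% lower). Changes with SD were thus common across the whole table, and the members' counts are to be read against those shares. The counts are not free of the choice, which favours genes with little spread within groups. The same 3 members passed in both genotypes in the same direction, as did 19.3% of all genes.

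Tfrc had the largest SD effect among the members. It fell by 0.75 ± 0.09 on the log2 scale in wild-type mice (limma adjusted p = 0.000776) and by 0.90 ± 0.06 in AcPb-/- mice (adjusted p = 0.000444). No SD library of either genotype overlapped its controls, as held for 40.2% of all genes in wild-type and 42.3% in AcPb-/- mice. Without SD-AcPbKO 4 the change in AcPb-/- mice was -0.94, with an adjusted p of 0.00422 in limma. With a term for the Xist libraries over all 12 libraries it was -0.71 in wild-type and -0.86 in AcPb-/- mice.

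Cep19 rose by 0.33 ± 0.07 in wild-type mice (limma adjusted p = 0.00687) and by 0.42 ± 0.06 in AcPb-/- mice (adjusted p = 0.00184), again with no overlap between SD and control libraries. The gene was thus lower in AcPb-/- than in wild-type mice and higher after SD than in controls, and SD-AcPbKO libraries came back to the level of CTL-WT, which they overlapped. Clec16a rose by 0.36 ± 0.07 in wild-type mice (adjusted p = 0.00473) and by 0.42 ± 0.09 in AcPb-/- mice (adjusted p = 0.0091). SD-WT overlapped CTL-AcPbKO, and SD-AcPbKO stood above every other group. With the Xist term the wild-type rise in Clec16a was 0.21 and no longer passed (limma adjusted p = 0.0693), and that in AcPb-/- mice was 0.28 (adjusted p = 0.0187). Without SD-AcPbKO 4 the rises in AcPb-/- mice were 0.44 for Cep19 and 0.45 for Clec16a (limma adjusted p = 0.00949 and 0.0267).

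Tiam1 fell by 0.17 ± 0.05 in wild-type mice (limma adjusted p = 0.0430), but passed in only 7 of 17 alternative settings. Without CTL-WT 1, 2 or 3 or SD-WT 1 or 2 it did not pass, and without SD-WT 2 the change was -0.15, with a limma adjusted p of 0.157. In AcPb-/- mice its change was -0.17 ± 0.08 (adjusted p = 0.175). Without SD-AcPbKO 2 it was -0.25, with an adjusted p of 0.0406 in limma. Atp13a4 changed by -0.12 ± 0.08 and -0.15 ± 0.08 in wild-type and AcPb-/- mice (limma adjusted p = 0.339 and 0.191). Tctex1d2 was at -0.19 ± 0.12 and 0.10 ± 0.09 (adjusted p = 0.264 and 0.430), and Ubald1 at 0.06 ± 0.07 and -0.08 ± 0.06 (adjusted p = 0.549 and 0.375). Gm20319 did not pass in either genotype and had too few reads for a fold change between the wild-type groups, 4 reads in CTL-WT and 3 in SD-WT.

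The SD effect in AcPb-/- minus that in wild-type mice was estimated over all 12 libraries as a description, since it is also the difference of the contrasts that chose the members. It was 0.29 ± 0.14 (log2 ± SE) for Tctex1d2, -0.16 ± 0.12 for Tfrc and -0.15 ± 0.09 for Ubald1. For Cep19 it was 0.08 ± 0.09, for Clec16a 0.07 ± 0.12, for Atp13a4 -0.03 ± 0.11 and for Tiam1 0.00 ± 0.10. Gm20319 had too few reads for such an estimate.

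**Figure D4:**
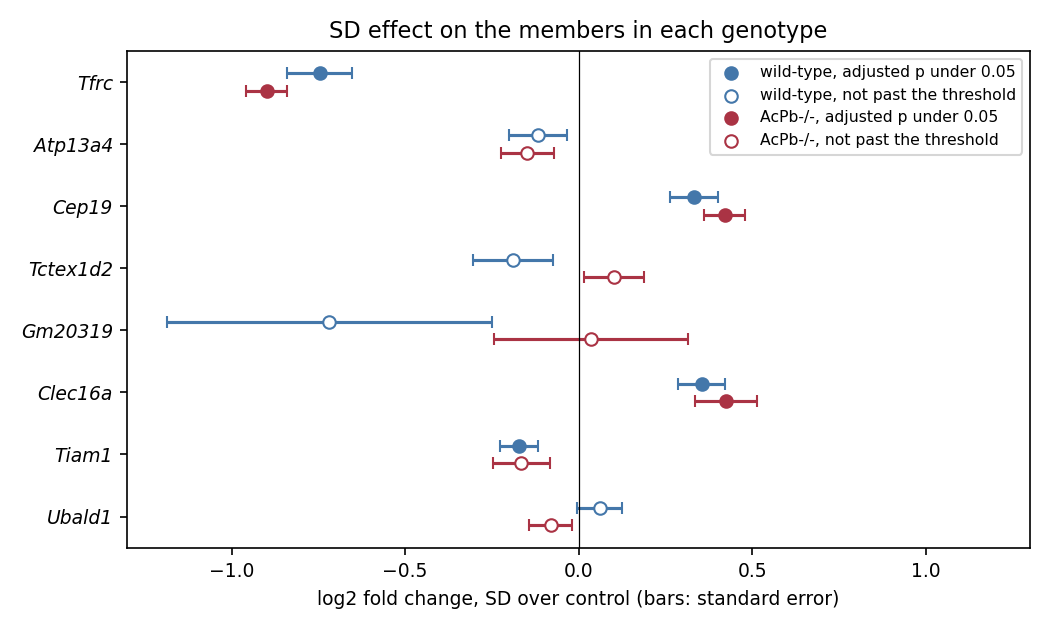
SD effect (x axis, log2 fold change of SD over control ± SE) on each member (y axis) in wild-type (blue) and AcPb-/- (red) mice. Filled points passed an adjusted p of 0.05 in limma: Tfrc at -0.75 and -0.90, Cep19 at 0.33 and 0.42, Clec16a at 0.36 and 0.42, and Tiam1 at -0.17 in wild-type mice.

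Markers of some cell types moved with SD. Of 6 endothelial markers, where Tfrc is known to be abundant, Ly6c1, Pecam1 and Flt1 rose and Cldn5 fell in both genotypes. The summed endothelial level was 11152 to 12028 normalized reads in CTL-WT and 11895 to 14420 in SD-WT, and 11004 to 12468 in CTL-AcPbKO and 11266 to 13408 in SD-AcPbKO, so no group stood apart. Of 4 oligodendrocyte markers, 3 fell in wild-type mice (Cnp, Mog and Mag), and Cnp fell in AcPb-/- mice. Microglial markers summed to 8529 to 10403 normalized reads in SD-AcPbKO, below the 11404 to 12456 of CTL-AcPbKO and the 11036 to 12030 of SD-WT, and 2 of 5, Csf1r and Cx3cr1, fell in AcPb-/- mice. In wild-type mice 0 of the 5 passed. Of 5 astrocyte markers, Aldh1l1 fell in both genotypes and Aqp4 in wild-type mice. Of 6 striatal neuron markers, Adora2a and Drd1 fell in wild-type mice, where the summed level was 7960 to 13476 in CTL-WT and 7428 to 10031 in SD-WT. In AcPb-/- mice 0 of the 6 passed and the sum went the other way, from 8777 to 9568 in CTL-AcPbKO to 9844 to 11775 in SD-AcPbKO. The choroid plexus marker Kl rose in wild-type mice, and 0 of 5 cortical neuron markers passed in limma in either genotype (3 and 2 at an unadjusted p under 0.05). The part of these cell types in the SD effects on the members was not tested.

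Genes that work with the members were read from lists of known partners. At most 4 passing genes a list and comparison, those with the largest changes, could be named. A gene given for a single genotype may therefore also have passed in the other. Of 21 iron-handling genes, 2 rose and 7 fell with SD in wild-type mice, and 4 rose and 9 fell in AcPb-/- mice. Over all genes 13.2% rose and 12.2% fell in wild-type mice, and 14.1% rose and 13.3% fell in AcPb-/- mice. The list's median log2 change was -0.21 and -0.15, beside 0.00 and 0.01 over all genes. Steap3, the endosomal iron reductase that works with the transferrin receptor, fell by 0.60 ± 0.12 in wild-type mice (limma adjusted p = 0.00480) and by 0.84 ± 0.19 in AcPb-/- mice (adjusted p = 0.0117). Ftl1, the ferritin light chain, fell by 0.45 ± 0.11 and 0.60 ± 0.11, and the iron exporter Slc40a1 fell by 0.70 ± 0.09 in AcPb-/- mice. Hmox1, which releases iron from heme, rose by 0.44 ± 0.11 in wild-type mice.

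Of 14 tested genes of the P5-type ATPases and polyamine handling, 2 rose and 3 fell in wild-type mice and 3 rose and 5 fell in AcPb-/- mice, where 25.4% and 27.4% of all genes passed in either direction. The list's median log2 change was 0.00 and -0.10. Atp13a2 fell by 0.55 ± 0.06 and 0.65 ± 0.07, whereas Atp13a4 did not pass in either genotype. The spermine oxidase Smox rose by 0.64 ± 0.12 and 0.64 ± 0.06. Azin2, an activator of ornithine decarboxylase, fell by 0.46 ± 0.06 and 0.63 ± 0.09.

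Of 30 genes of ciliary dynein-2, intraflagellar transport and Cep19 partners, 11 rose and 3 fell with SD in wild-type mice and 11 rose and 4 fell in AcPb-/- mice. Over all genes 13.2% rose and 12.2% fell in wild-type mice, and 14.1% and 13.3% in AcPb-/- mice. The list's median log2 change was 0.12 and 0.18. The dynein light chain Dynlrb1 rose by 0.55 ± 0.08 and 0.48 ± 0.08, and Rabl2, which Cep19 recruits, rose by 0.38 ± 0.08 in wild-type mice. Rabl2 was not among the largest changes named in AcPb-/- mice, which does not tell whether it passed there. Wdr34, an intermediate chain of dynein-2, fell by 0.46 ± 0.07 and 0.55 ± 0.08.

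Of 15 Clec16a partners and mitophagy genes, 2 rose and 4 fell in wild-type mice and 3 rose and 3 fell in AcPb-/- mice, beside 25.4% and 27.4% of all genes past the threshold. The median log2 change was -0.07 and -0.05. Pink1, the kinase that starts mitophagy, fell by 0.45 ± 0.07 and 0.60 ± 0.09, and Usp8, a deubiquitinase, rose by 0.28 ± 0.07 and 0.44 ± 0.07. Of 24 Rac exchange factors and Tiam1 partners, 5 rose and 2 fell in wild-type mice and 5 rose and 4 fell in AcPb-/- mice, beside the same shares of all genes, with a median log2 change of 0.07 and 0.03. Rac3 fell by 0.94 ± 0.13 and 1.01 ± 0.14, the kinase Pak1 rose by 0.39 ± 0.07 and 0.48 ± 0.09, and the exchange factor Trio rose by 0.36 ± 0.07 and 0.32 ± 0.07. No gene of any of the 5 lists passed between the genotypes in limma, in controls or after SD. At an unadjusted p under 0.05, 9 of 103 listed genes passed between genotypes in controls and 7 of 105 after SD, beside 8.53% and 6.13% of all genes, and DESeq2 and edgeR called 0.

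The gene most like each member over the 12 libraries was sought among 12556 others by Pearson's r of log2 values, as a description in which the points share condition and depth. For Gm20319 it was Atp13a4 (r = 0.961), a pair that the choice of members already made alike, since both were higher in every AcPb-/- library. The others were on other chromosomes, with Chid1 for Tfrc (r = 0.982), Brms1l for Cep19 (0.975), Iffo2 for Clec16a (0.965), Ap1g2 for Atp13a4 (0.920), Arpp21 for Tiam1 (0.892), Rfesd for Tctex1d2 (0.878) and Idh3g for Ubald1 (0.853).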

How the data were processed

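RNA from somatosensory cortex was sequenced in paired ends after TruSeq Stranded mRNA preparation. Per the labels, reads were aligned to mm10 with HISAT2 2.2.1 and counted per gene with featureCounts (strand setting and annotation not given in the sources used here), then scaled with DESeq2. The 5 deposited tables held this normalized signal, gene counts divided by size factors of each table. All 732630 values gave whole reads within 0.01 (100.0%), and counts did not differ between tables. limma 3.58.1 in R 4.3.3 was fitted per pair of groups on log2(normalized count + 1), over genes with a read, with a variance trend and Benjamini-Hochberg adjustment over all genes, 2-sided. Printed library values used median-of-ratios scaling over 12 libraries. edgeR 4.0.16 and DESeq2 1.42.0 were run on the recovered counts. On simulated data, 96 to 99 of 100 genes changed by 1 on the log2 scale were recovered, and 56 to 76 of 100 changed by 0.5. In each comparison 4 to 12 unchanged genes were called. The changed genes were drawn above a read floor that Gm20319, Tmem207 and Ostn do not reach, and changes under 0.5 were not simulated. Of the deposited names, 23336 (95.6%) matched GENCODE. Named genes were the 8 members, Il1rap, up to 4 list genes a comparison and the gene most like each member. The members and lists were chosen with earlier results of these data known. Separate libraries were taken as separate mice per the labels. A listed marker gene is not reported here.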

Additional observations from a re-analysis of the deposited data

How the results depend on the processing

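The number of members that passed with SD was 4 in wild-type and 3 in AcPb-/- mice. Leaving out each library in turn gave 3 to 4 in both. Replicate numbers did not pair the libraries (correlations of deviations between -0.427 and 0.231, fewer than 3 shared numbers a contrast). With the replicate block, which leaves 1 residual degree of freedom, 0 members passed in wild-type and 0 in AcPb-/- mice, as did 0 of all genes, and 0 genes near Il1rap differed by genotype after SD. No paired fit was possible for the control genotypes because they share 1 number. With all 4 groups in one fit and an Xist term, 2 members passed with SD in wild-type mice.

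Genes within 10 Mb of Il1rap that passed between genotypes numbered 0 in both conditions. In controls the count was 1 with no filter, 3 with DESeq2, 3 with all groups in one fit, 2 with the Xist term added, and 0 to 3 leaving out a library (3 without CTL-AcPbKO 3). Over all genes the counts were 15 with no filter, 93 with DESeq2, 8 in one fit and 7 with the Xist term. Without CTL-AcPbKO 3, 168 genes passed over the whole genome. After SD the count near Il1rap was 1 with no filter, 1 with a pseudocount of 10, 4 with DESeq2, 1 with edgeR, 3 with all groups in one fit, 3 with the Xist term, 1 with libraries thinned to the smallest total, and 0 to 0 leaving out a library. Over all genes these settings gave, in that order, 16, 3, 97, 9, 5, 13 and 4, and 0 to 4 leaving out a library. The term for Xist in the 6 control libraries, chosen after seeing the data, gave 0 near Il1rap and 10 over all genes. The counts near Il1rap include members, which the genotype contrasts chose, and test nothing about them. DESeq2 and edgeR called members only there, and the fit of all groups called Tmem207 besides 2 members. The cause of these differences was not tested.

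The SD change of Gm20319 in AcPb-/- mice, 0.04, became -0.16 with the Xist term, -0.051 without CTL-AcPbKO 4 and -0.064 without SD-AcPbKO 3 (range leaving out a library -0.064 to 0.14), none past the threshold, and its genotype difference in controls ranged from 0.75 with a pseudocount of 10 to 2.86 with DESeq2. The direction of no other member reversed. Clec16a did not pass in AcPb-/- mice without a filter (limma adjusted p = 0.0576). Depth limits Gm20319, Tmem207 and Ostn, with 22 reads or fewer a library.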
